A study of Mus musculus with 3 samples.

Results

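Leukocyte adhesion molecules were followed as 6 genes, Vcam1, Icam1, Icam2, Sele, Selp and Madcam1, matched by symbol among the 32285 genes counted in mouse retinal cells. The set was selected on the level of Vcam1 over all endothelial cells, which was known to be higher in the old library, so contrasts between ages are described here and not tested. Each of the 3 droplet libraries held the pooled retinas of a pair of C57BL/6JRj mice, at 3 months (young), 12 months (adult) or 23 months (old), and no genotype or treatment set the libraries apart. Vessels were separated from most neurons by low-speed pelleting and digested, and the cells were enriched with magnetic beads against CD31, an adhesion protein of the endothelial surface, so the shares of other cells are those that the beads left. With 1 library per age, differences between ages cannot be told apart from differences between preparations. No p-value is given, and all intervals are 95% exact intervals. Those of levels and ratios cover counting error only, not the draw of cells. Those of shares cover the draw of cells within a library, and none covers the draw of animals.

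Leukocytes leave the blood in steps. Selectins on the endothelial surface (E-selectin, encoded by Sele, and P-selectin, encoded by Selp) catch passing leukocytes through sugar-bearing ligands such as PSGL-1 and let them roll. Firm arrest then needs immunoglobulin-family proteins: ICAM-1 and ICAM-2 are bound by the leukocyte integrin LFA-1, and VCAM-1 by the integrin VLA-4. MAdCAM-1 is the addressin of gut and mesenteric vessels and is bound by the α4β7 integrin. Venules are the usual site of this traffic. VCAM-1, ICAM-1 and E-selectin are known to be induced by inflammatory cytokines through NF-kB, while ICAM-2 is a constitutive endothelial protein, and retinal vessels, which hold a tight blood barrier, normally admit few leukocytes.

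The libraries held between 2491 and 3243 barcodes and between 16577026 and 19977238 unique molecular identifiers (UMIs, the counts of captured RNA molecules), and 1706, 1957 and 1697 cells were kept in young, adult and old. The libraries shared between 0 and 3 barcodes. Arterial endothelial cells formed a cluster of their own with 48, 60 and 78 cells, led by Gkn3, Sema3g, Vegfc and Bmx, with 9 of 12 arterial markers above the limits set. Other endothelial cells, from a cluster with all 10 endothelial markers, numbered 396, 374 and 333. Müller glia, the radial support cells of the retina, numbered 180, 214 and 207, mural cells (pericytes and smooth muscle) 208, 168 and 141, and neurons (rods, cones, bipolar and amacrine cells) 399, 581 and 443. Droplets with both endothelial and pericyte markers, 312, 248 and 220, were kept apart from these classes. The adhesion genes were left out of the genes used for clustering.

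Of the 6 genes, 3 were measured at useful depth. Over all kept cells Icam2 had 1400, 1514 and 1745 UMIs in young, adult and old, Vcam1 had 646, 986 and 1113, and Icam1 had 181, 283 and 225. Sele had 1, 0 and 2 UMIs, Selp had 0, 2 and 1, and Madcam1 had none. Levels are given in CPM, the UMIs of a gene per 1000000 UMIs of its cell class, a scale on which the same gene can be compared between classes and libraries. The genes lie apart in the GRCm38 genome (GENCODE annotation) except for the selectins. Vcam1 lies at chr3:116109949-116129688 on the minus strand, Icam1 at chr9:21015985-21028817 on the plus strand, and Icam2 at chr11:106377656-106388075 on the minus strand. Sele (chr1:164048234-164057677) and Selp (chr1:164115264-164150026) are neighbours on the plus strand with 57.6 kb between them, and Madcam1 lies at chr10:79664559-79668537 on the plus strand.

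Vcam1, Icam1 and Icam2 each had a different distribution over the cell classes. Among the endothelial, mural, glial and neuronal classes Icam2 was an endothelial gene. B cells also carried it, at 88.6 CPM in adult and 73.1 CPM in old. Vcam1 was highest in arterial endothelium and was also present in Müller glia, and Icam1 was spread over other endothelial cells, arterial cells and Müller glia in small numbers. Mural cells and neurons carried few UMIs of the 3. In the young library the order of Vcam1 was arterial endothelium, then Müller glia, then other endothelium, and no neighbouring intervals in this order overlapped. In the old library other endothelium stood above Müller glia, and in the adult library those 2 classes had overlapping intervals.

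**Figure D1:**
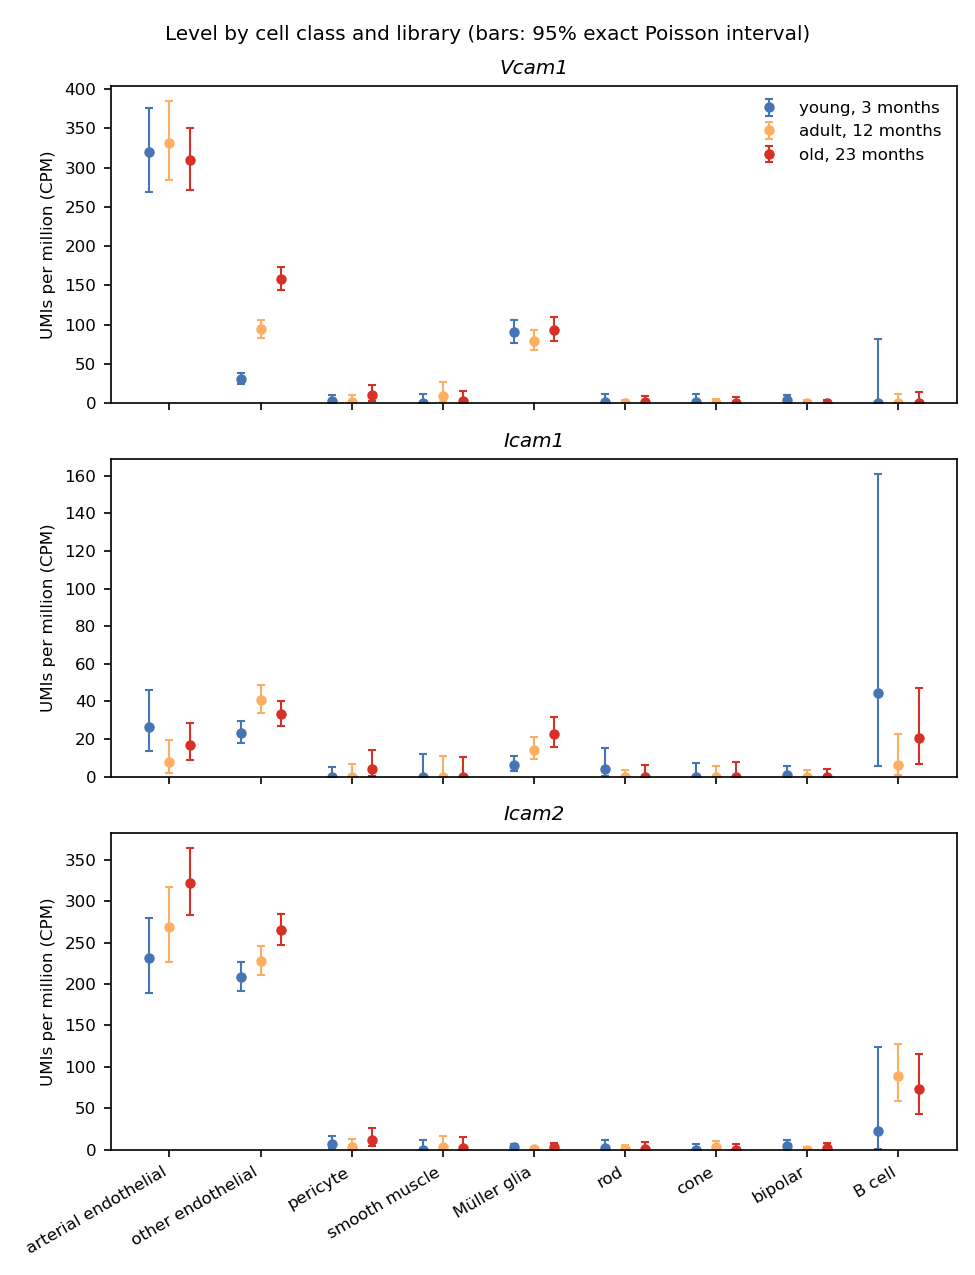
Level of Vcam1, Icam1 and Icam2 (vertical axes, CPM) in 9 cell classes (horizontal axis) in the young, adult and old libraries. Points are class sums in 1 library and bars are 95% exact Poisson intervals. Vcam1 was between 309 and 331 CPM in arterial cells, while in other endothelial cells it was 30.8, 94.1 and 158 CPM.

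Vcam1 in arterial endothelial cells was 319 CPM (269 to 376) in young, 331 CPM (284 to 385) in adult and 309 CPM (271 to 351) in old. The 3 intervals overlapped, and old stood at 0.968 times young (0.785 to 1.20). That level rested on few cells in the young library. There, 114 of the 145 Vcam1 UMIs were in the 5 arterial cells that had the most, against 108 of 174 in adult and 98 of 241 in old. Without the 5 highest cells of each library the ratio of old to young was 2.38. Those 5 are a larger part of the 48 young cells and their UMIs than of the 78 old ones. With every cell counted equally the ratio was 1.29. The share of arterial cells with a Vcam1 UMI was 41.7% (20 of 48), 40.0% (24 of 60) and 60.3% (47 of 78), with overlapping intervals of 27.6 to 56.8%, 27.6 to 53.5% and 48.5 to 71.2%. After each cell was thinned to 2000 UMIs the shares were 19.1, 21.4 and 32.9%. The old arterial cells also carried 4400 CPM of erythroid markers (all 5 detected) against 4.40 and 28.6 CPM in young and adult (3 and 1 of 5 at 0), and the part of this in the Vcam1 level was not tested.

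Vcam1 in other endothelial cells differed far more between libraries. It was 30.8 CPM (24.6 to 38.0) in young, 94.1 CPM (83.2 to 106) in adult and 158 CPM (144 to 173) in old. The intervals of the 3 libraries did not overlap. The level in adult was 3.06 times that in young (2.39 to 3.94), old was 1.68 times adult (1.45 to 1.96), and old was 5.15 times young (4.08 to 6.56). The size of the last value depended on which cells were counted. Without cells with 2 or more markers of another class the ratio was 1.24 (9 and 14 UMIs). That limit left 86 of 396 young and 39 of 333 old cells, and deeper cells pass it less easily. The ratio was 2.56 with arterial cells named by their own markers and 2.59 with mixed endothelial and pericyte droplets counted in. Without the 5 highest cells of each library, which held 58 of the 86 young and 196 of the 465 old UMIs, the ratio was 9.23. Over all endothelial cells together, the contrast that led to the choice of the genes, old stood at 2.67 times young (2.30 to 3.12). The arterial level was 10.4 times that of other endothelial cells in young (7.89 to 13.7), 3.52 times in adult (2.90 to 4.28) and 1.95 times in old (1.66 to 2.28). With arterial cells named by their own markers instead of by cluster, these ratios were 2.50, 1.36 and 2.15, with no steady order, and Vcam1 in old stood at 2.20 times young in arterial and 2.56 times in other endothelial cells. A cell was then called arterial with a UMI of at least 3 of the 12 arterial markers, which deeper cells meet more easily. That gave 155, 179 and 219 arterial cells, with 154, 274 and 563 Vcam1 UMIs, against 145, 174 and 241 UMIs by cluster. Without cells with 2 or more markers of another class, which left 9 to 12 arterial cells a library, the arterial level was 0.494 times the other one in adult and 13.1 times in old.

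Of the 6 genes, 3 had the 20 UMIs needed to be counted in other endothelial cells between old and young, and 1 of them, Vcam1, was at least 1.5-fold higher in old. Across all 10292 genes with that depth, 7% were as far higher and 5.75% as far lower. Between adult and young, Vcam1 and Icam1 were at least 1.5-fold higher and none was as far lower, against 5.44% and 3.94% of all genes. Between old and adult, Vcam1 was higher and none was as far lower, against 5.19% and 5.73% of all genes. In arterial cells no adhesion gene was past that fold in the higher direction between old and young, where 10.8% of all genes were. Icam1, with 25 UMIs in both libraries together, was past it in the lower direction, where 9.38% were. The list is too short for its share to be read against these backgrounds, which show only how common such a fold was.

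Within the other endothelial cells, Vcam1 lay mainly in 1 subcluster. This venous-like subcluster had the highest level of 6 of 8 venous markers (Nr2f2, Slc38a5, Vwf, Prcp, Ctsc and Tmem252), and held 160, 171 and 156 cells. Its leading genes included the chemokine gene Cxcl10 and the interferon-induced genes Ifit3 and Ifit3b, as well as Vcam1, so the level of Vcam1 against the other subclusters is a description. Vcam1 in venous-like cells was 57.3 CPM (45.7 to 71.1) in young, 152 CPM (134 to 172) in adult and 249 CPM (226 to 274) in old. Old stood at 4.34 times young within this subcluster (3.43 to 5.57), where 8.11% of all genes were at least 1.5-fold higher and 7.04% as far lower. Other markers also differed between the venous-like cells of the libraries, with rod markers at 55.3, 78.2 and 173 CPM, Müller glia markers at 641, 816 and 926 CPM, erythroid markers at 807, 364 and 71.5 CPM and venous markers at 758, 749 and 973 CPM, and their part in the Vcam1 level was not tested. The arterial level was 5.57, 2.18 and 1.24 times the venous-like one in young, adult and old, smallest in the old library with arterial cells named by cluster.

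The remaining subclusters held little Vcam1. A subcluster of 82, 69 and 64 cells with 5 arterial markers at their highest among these subclusters (Bmx, Sema3g, Efnb2, Gkn3 and Mgp) had 1, 3 and 31 Vcam1 UMIs, which is 1.66, 5.26 and 51.7 CPM. Its arterial markers stood at 1268, 1590 and 2016 CPM (3 of 12 at 0 in each library), its Müller glia markers at 1367, 1324 and 1769 CPM (3, 5 and 1 of 8 at 0) and its erythroid markers at 54.7, 19.3 and 1250 CPM (1 of 5 at 0 in each), and their part in the Vcam1 level was not tested. In old, all 31 came from 7 cells, and the 5 highest held 93.5% of them. A subcluster of 140, 119 and 101 cells that could not be named, whose leading genes included RNA of blood and other retinal cells (Hbb-bs, Pf4, Ptgds, Ttr), had 2, 4 and 9 UMIs. Capillary-like cells numbered 14, 15 and 12 and had 0, 2 and 0 UMIs, which at this depth allows no comparison.

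**Figure D2:**
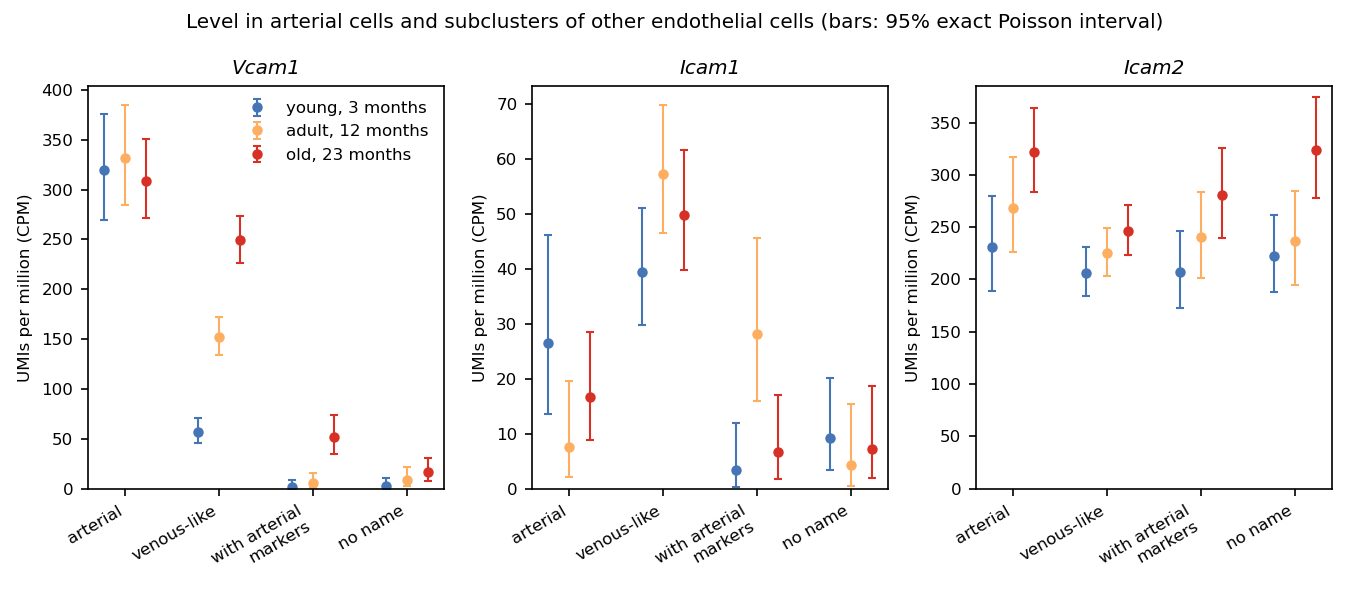
Level of Vcam1, Icam1 and Icam2 (vertical axes, CPM) in arterial cells and in 3 subclusters of the other endothelial cells (horizontal axis), by library, with 95% exact Poisson intervals. Vcam1 in venous-like cells was 57.3, 152 and 249 CPM in young, adult and old, while Icam2 lay between 207 and 324 CPM in all 4 sets.

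The higher level in other endothelial cells came with more cells that carried Vcam1, and with more cells of high UMI numbers among them. A Vcam1 UMI was found in 5.56% of young cells (22 of 396, 3.51 to 8.29%), in 11.2% of adult ones (42 of 374, 8.21 to 14.9%) and in 17.4% in old (58 of 333, 13.5 to 21.9%). In rods, which should lack the gene, the shares were 0.602%, 0% and 0.422%, and 0 of 322 adult rods allows a share of up to 0.932%. Median depth was 5494, 5918 and 7131 UMIs per cell in the other endothelial cells and 2287, 2426 and 2144 in rods. Thinned to 2000 UMIs per cell, a Vcam1 UMI was kept by 7 of 383 cells in young, 21 of 350 in adult and 27 of 330 in old (1.83, 6 and 8.18%), so the order of the libraries was the same at equal depth. Cells with at least 5 Vcam1 UMIs numbered 4, 12 and 23, and the mean over cells with a UMI was 3.91, 6.43 and 8.02, while the median was 2 in every library.

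Few cells held most of these molecules. The 5 highest cells held 67.4% of the Vcam1 UMIs of other endothelial cells in young, 51.9% in adult and 42.2% in old, and the highest single cells had 20, 34 and 64 UMIs. With thinned cells old stood at 7.91 times young. The limit of 2 markers of another class left 86 young and 39 old cells, while with a limit of 4 such markers, which left 308 and 260 cells, the ratio was 8.05.

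**Figure D3:**
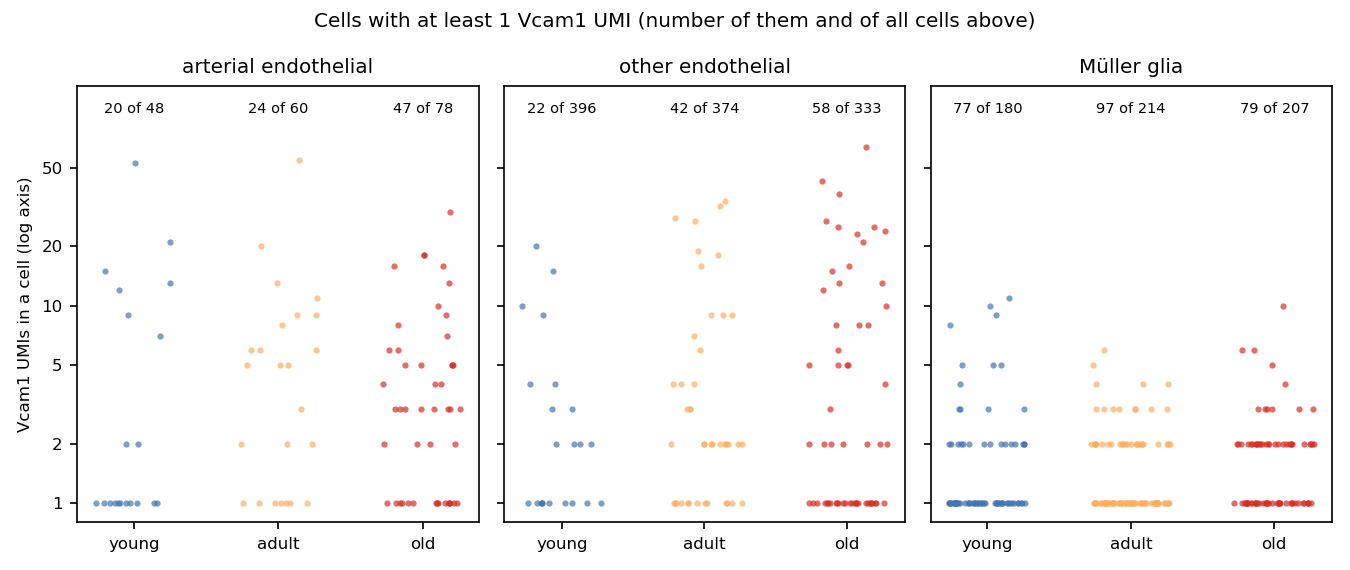
Vcam1 UMIs (vertical axis, log scale) in each cell with at least 1, by library (horizontal axis), in arterial endothelial cells, other endothelial cells and Müller glia; sideways scatter has no meaning. Numbers above give the cells shown and all cells of the class. In Müller glia no cell had more than 11 UMIs, while single endothelial cells reached 64.

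The other endothelial cells with Vcam1 differed from those without it in their venous markers in every library. Venous-like cells, named by these markers, held 83 of the 86 Vcam1 UMIs in young, 261 of 270 in adult and 425 of 465 in old. The split is thus not independent of that subcluster. Cells with Vcam1 numbered 22, 42 and 58, with median depths of 14787, 8480 and 11806.5 UMIs, against 5402.5, 5683 and 6621 without it. The summed level of the 8 venous markers was 1405 CPM in cells with a Vcam1 UMI and 419 CPM in those without in young, 1182 and 507 CPM in adult, and 1236 and 558 CPM in old. Vwf, which encodes von Willebrand factor, was 519 against 181 CPM in young, 401 against 236 CPM in adult and 545 against 233 CPM in old. The transcription factor gene Nr2f2, which specifies venous identity, was 267 against 58.1 CPM, 266 against 72.5 CPM and 153 against 47.0 CPM. Capillary markers were lower in the cells with Vcam1, at 9026 against 12968 CPM in young, 10493 against 13674 CPM in adult and 8943 against 11934 CPM in old. Arterial markers were 984 against 816 CPM, 968 against 879 CPM and 1463 against 1088 CPM, all far under the 5816 to 7319 CPM of the arterial cluster.

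Cxcl10, which encodes a chemokine that draws T cells, was added after its values were seen. In the old library all 5 of the other endothelial cells with a Cxcl10 UMI also had Vcam1, and 679 of their 789 UMIs lay in 1 cell, which had 21 Vcam1 UMIs. In adult 2 of 3 cells with Cxcl10 had Vcam1, and in young 1 of 2. Its place among the leading genes of the venous-like subcluster thus rested on very few cells.

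Markers of other cells also differed between libraries among the other endothelial cells. The summed level of the 8 Müller glia markers was 851, 957 and 1133 CPM in young, adult and old, with 0, 2 and 0 markers at 0, which is 3.84, 4.21 and 5.06% of their level in Müller glia. The cells with Vcam1 had less of it than those without, 512 against 895 CPM in young, 761 against 992 CPM in adult and 969 against 1193 CPM in old. Rod markers went the other way in old, where they were 294 CPM in cells with Vcam1 and 98.6 CPM in those without, against 37.7 and 65.4 CPM in young and 90.0 and 127 CPM in adult. In the 23 old cells with at least 5 Vcam1 UMIs, which held 418 of the 465, rod markers were 19.8 CPM, so this excess lay in cells with few Vcam1 UMIs. Pericyte markers were 1021 against 2300 CPM in young, 1562 against 2366 CPM in adult and 1694 against 1608 CPM in old. The 8 pericyte markers, none at 0, stood at 2155, 2242 and 1631 CPM, and the 8 rod markers, none at 0, at 62.2, 122 and 151 CPM. Over the class the venous markers were 531, 612 and 739 CPM and the arterial markers 835, 893 and 1188 CPM. The part of these differences in the Vcam1 level was not tested.

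In the mixed endothelial and pericyte droplets the libraries stood in another order. Vcam1 in the larger of their 2 clusters was 12.1 CPM in young, 67.2 CPM in adult and 34.6 CPM in old, highest in adult. In adult, 5 droplets held 83.5% of those UMIs and 1 of them held 79 UMIs. The smaller cluster had 163, 172 and 178 CPM, with overlapping intervals. Icam1 in the larger cluster was also highest in adult, at 17.1, 33.6 and 19.7 CPM, and over both clusters Icam2 was at 138, 155 and 176 CPM. How many cells each droplet held was not measured, and the levels are not those of a single cell type.

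Vcam1 in Müller glia was 90.1 CPM (76.3 to 106) in young, 79.8 CPM (67.7 to 93.3) in adult and 93.7 CPM (79.1 to 110) in old. All 3 intervals overlapped, and old stood at 1.04 times young (0.821 to 1.32). Single glia had few UMIs, at most 11 in a cell. A UMI was found in 42.8% of glia in young (77 of 180), 45.3% in adult (97 of 214) and 38.2% in old (79 of 207), and the 5 highest cells held 28.9, 14.8 and 21.4% of the UMIs. The summed endothelial markers in these cells were 4.30, 4.07 and 4.25% of their endothelial level, while Vcam1 was at 127, 61.0 and 49.3% and Icam2 at 1.43, 0.440 and 1.40% of theirs. The source of the Vcam1 RNA in these droplets was not tested.

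Icam1 was the gene of the list that differed between libraries in Müller glia. It had 10, 28 and 35 UMIs, or 6.05 CPM (2.90 to 11.1) in young, 14.4 CPM (9.57 to 20.8) in adult and 22.6 CPM (15.8 to 31.5) in old. The young and old intervals did not overlap, and old stood at 3.74 times young (1.81 to 8.47). The size of this ratio was not stable, and the cause was not tested. It was 12.0 with the level in rods subtracted, 10.7 without the 5 highest cells and 13.5 without cells with 2 or more markers of another class, and the gene is not counted at a minimum of 50 UMIs. Markers of other cells also differed between the Müller glia of the libraries, with fibroblast markers at 15.7, 54.5 and 78.9 CPM (2 of 5 at 0 in each), rod markers at 486, 1411 and 906 CPM (none of 8 at 0), astrocyte markers at 1437, 827 and 868 CPM (0, 1 and 2 of 6 at 0) and venous markers at 430, 201 and 187 CPM (1, 3 and 3 of 8 at 0), and their part in the Icam1 level was not tested. Of the 2 adhesion genes with enough UMIs in these cells, Icam1 was at least 1.5-fold higher in old and none was as far lower, against 8.39% and 7.12% of all genes. Against the endothelial level of Icam1, these values were 25.5, 40.4 and 76.4%, all above the share of the endothelial markers given above. Cells with an Icam1 UMI numbered 7, 13 and 21 (3.89, 6.07 and 10.1%), and with thinned cells 0 of 170, 4 of 198 and 12 of 167. Of the 35 old UMIs, 9 came from the smaller of 2 Müller clusters, and in the larger cluster the level was 6.70, 15.2 and 19.0 CPM. Other endothelial cells had 3.84, 2.83 and 1.46 times the Müller level of Icam1 in young, adult and old.

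Mural cells and neurons carried few UMIs of any adhesion gene. Pericytes had 2, 1 and 5 Vcam1 UMIs, 0, 0 and 2 Icam1 UMIs, and 5, 2 and 6 Icam2 UMIs. Endothelial markers in pericytes stood at 5.92, 6.78 and 7.82% of their endothelial level, and Vcam1 in pericytes at 4.02, 1.37 and 5.24% of its own. Smooth muscle cells had 0, 3 and 1 Vcam1 UMIs, 0, 1 and 1 Icam2 UMIs and no Icam1 UMI. Over all mural cells the old level, from 6 and 2 UMIs, was 3.51 times the young one (0.627 to 35.5). Neurons had 6, 0 and 1 Vcam1 UMIs among 399, 581 and 443 cells, and 4 of the 6 in young were in a single bipolar cell. Icam1 in neurons was 3, 0 and 0 UMIs and Icam2 was 6, 3 and 4.

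Icam1 in endothelium rested on fewer UMIs than Vcam1 or Icam2. Other endothelial cells had 65, 117 and 97 Icam1 UMIs, or 23.2 CPM (17.9 to 29.6) in young, 40.8 CPM (33.7 to 48.8) in adult and 33.0 CPM (26.8 to 40.3) in old. The level was highest in adult, and the adult and old intervals overlapped. The ratio of adult to young was 1.75 (1.28 to 2.41), of old to adult 0.811 (0.613 to 1.07) and of old to young 1.42 (1.03 to 1.98). Thinned to 2000 UMIs per cell the ratio of old to young was 2.84, from 22 and 9 UMIs, and among the cells with fewer than 2 markers of another class it was 0.770, from 4 and 10 UMIs. Arterial cells had 12, 4 and 13 UMIs, or 26.4, 7.62 and 16.7 CPM, and all 12 in young came from 3 cells. In venous-like cells Icam1 was 39.4 CPM (29.8 to 51.0), 57.2 CPM (46.5 to 69.7) and 49.8 CPM (39.8 to 61.6), with old at 1.27 times young (0.894 to 1.80).

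Among venous-like cells, Icam1 was found more often in those with a Vcam1 UMI than in those without one. An Icam1 UMI was present in 14 of 20 young cells with Vcam1 (70.0%, 45.7 to 88.1%) and in 17 of 140 without it (12.1%, 7.24 to 18.7%). In adult the shares were 26 of 35 (74.3%, 56.7 to 87.5%) and 17 of 136 (12.5%, 7.45 to 19.3%). In old they were 21 of 47 (44.7%, 30.2 to 59.9%) and 19 of 109 (17.4%, 10.8 to 25.9%), the smallest gap of the 3 libraries. Cells with Vcam1 were also deeper, with median UMIs of 15266, 10661 and 13823 against 6830, 7601 and 7840. At an equal depth of 2000 UMIs the shares with Icam1 were 50 against 1.97% in young (3 of 6 and 3 of 152 cells), 47.4 against 4.67% in adult (9 of 19 and 7 of 150) and 22.7 against 7.52% in old (5 of 22 and 10 of 133), and the old intervals overlapped. In arterial cells an Icam1 UMI was present in 2 of 20 cells with Vcam1 and 1 of 28 without it in young, in 1 of 24 and 3 of 36 in adult, and in 8 of 47 and 0 of 31 in old.

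Icam2 was carried by endothelial cells of every kind. In other endothelial cells it was 208 CPM (192 to 226) in young, 228 CPM (211 to 246) in adult and 265 CPM (247 to 285) in old. The young interval lay below the old one, and old stood at 1.27 times young (1.14 to 1.42), short of the 1.5-fold used above. Arterial cells had 231, 269 and 322 CPM, with old at 1.39 times young (1.10 to 1.77). The arterial level was 1.11, 1.18 and 1.21 times that of other endothelial cells. An Icam2 UMI was found in 65.7, 74.3 and 80.5% of other endothelial cells, and in 35.8, 38.0 and 41.2% of them once thinned, with overlapping intervals. Venous-like cells had 207, 225 and 247 CPM, and the subcluster with arterial markers 207, 240 and 280 CPM, so unlike Vcam1 and Icam1 it did not mark the venous-like cells. The 5 highest cells held between 6.73 and 8.34% of its UMIs in other endothelial cells, against 42.2 to 67.4% for Vcam1.

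The selectins and the addressin were at the limit of detection. All 3 Sele UMIs, 1 in young and 2 in old, were in venous-like endothelial cells, each in a cell of its own. The 2 adult Selp UMIs lay in a cone and in an unnamed droplet of few UMIs with endothelial markers, and the old one in a mixed endothelial and pericyte droplet. The arterial and other endothelial classes had no Selp UMI. Madcam1 had no UMI in any of the kept cells. For the other endothelial cells, 0 UMIs allow a level of up to 1.07 CPM in young, 1.05 CPM in adult and 1.02 CPM in old. A difference in these genes between ages was not detectable at this depth.

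The promoters of Icam1 and Sele are shown because both genes are known cytokine-induced endothelial genes and yet were counted so differently, with 65 to 117 UMIs for Icam1 and 0 to 2 for Sele in other endothelial cells. The sequences are the 250 bases before the start of each gene, from RefSeq on GRCm38.p6, on the plus strand (for Icam1 the RefSeq start lies before the GENCODE one given above). Of the 6 genes, 4 matched an entry (Icam1, Sele, Selp and Madcam1), and Vcam1 and Icam2 did not. Capitals mark matches on either strand to GGNNNTTCC, a form of the NF-kB site, TTCNNNGAA, a form of the STAT site, and TATAAA, the TATA box, where N is any base.
Icam1, chr9:21015690-21015939: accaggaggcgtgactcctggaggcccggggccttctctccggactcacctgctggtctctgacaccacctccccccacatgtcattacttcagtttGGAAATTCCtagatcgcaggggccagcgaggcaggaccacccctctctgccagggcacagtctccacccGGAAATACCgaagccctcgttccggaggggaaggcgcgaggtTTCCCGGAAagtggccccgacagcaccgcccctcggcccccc
Sele, chr1:164047984-164048233: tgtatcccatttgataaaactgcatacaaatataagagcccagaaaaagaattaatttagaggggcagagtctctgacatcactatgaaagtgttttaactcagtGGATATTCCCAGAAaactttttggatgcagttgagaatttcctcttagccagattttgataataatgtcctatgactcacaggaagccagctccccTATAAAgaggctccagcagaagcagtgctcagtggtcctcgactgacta
The Icam1 stretch held GGAAATTCC from 153 to 145 bases before the start, which matches the degenerate NF-kB form on either strand, a second NF-kB form from 84 to 76 and TTCCCGGAA from 42 to 34. The Sele stretch held GGATATTCC from 145 to 137 bases before the start, TTCCCAGAA from 140 to 132, which overlaps it, and TATAAA from 49 to 44. Of 32851 promoters of that length, 15.7% held the NF-kB form, 7.02% the STAT form and 12.4% the TATA box. Both stretches thus held an NF-kB and a STAT form, and only the Sele stretch held a TATA box. The presence of the NF-kB and STAT forms alone did not separate the gene that was counted from the one that was nearly absent.

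Leukocytes in the same libraries carried the partners of these molecules. B cells numbered 10, 77 and 57, and a mixed cluster of microglia, T and NK cells 9, 28 and 14, so the young values rest on few cells. Itga4, the α4 chain that binds VCAM-1, had 7, 65 and 32 UMIs in B cells (156, 206 and 130 CPM) and 10, 62 and 43 in the mixed cluster (142, 249 and 385 CPM). Pericytes also carried Itga4, at 192, 206 and 169 CPM. Itgal and Itgb2, the chains of LFA-1, had 5, 30 and 33 UMIs and 10, 42 and 35 UMIs in the mixed cluster. Selplg, which encodes PSGL-1, had 31, 135 and 40 UMIs there. Of the adhesion genes themselves, Icam2 was at 88.6 CPM in adult and 73.1 CPM in old B cells (28 and 18 UMIs), from 25 of 77 and 12 of 57 cells, and 1 UMI was found in young. Icam1 had 2, 2 and 5 UMIs in B cells, and Vcam1 had none. In the mixed cluster Icam1 had 1, 21 and 5 UMIs, the 21 in adult from 7 of 28 cells. Icam2 had 3, 14 and 1 UMIs there, and Vcam1 had 0, 7 and 1, the 7 in a single cell.

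The pathway around the adhesion molecules was described in other endothelial cells by the same fold between old and young, which 7% of all genes passed in the higher and 5.75% in the lower direction. Of 18 cytokine receptor and NF-kB genes, all with enough UMIs, none was at least 1.5-fold higher or lower in old, with a median log2 ratio of -0.01 against 0.02 over all genes. None of the 11 counted genes of the junctions that leukocytes cross, the 10 membrane anchors and partners, the 5 flow regulators or the 3 sheddases that cut adhesion molecules from the surface was past that fold either. With so few genes in each list, counts of 0 are near those shares and say nothing particular about the lists. Among 3 counted integrin and selectin ligand genes, Itga4 was lower in old, from 15 and 5 UMIs, a ratio of 0.318 (0.0903 to 0.919).

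In the venous-like subcluster, 1 of 17 counted cytokine receptor and NF-kB genes, 2 of 10 anchors and 1 of 11 junction genes were past the fold in the higher direction and none of these in the lower, against 8.11% and 7.04% of all genes. Nfkb2, a subunit of NF-kB, was at 2.08 times the young level in old (1.00 to 4.65, from 27 and 11 UMIs), and the tetraspanin genes Cd9 and Cd63 were at 1.56 (1.29 to 1.89) and 1.81 (1.22 to 2.73). Tetraspanins gather VCAM-1 and ICAM-1 into patches in the membrane. Jam3, a junction gene, was at 1.53 (0.668 to 3.70, from 18 and 10 UMIs).

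In arterial cells, 2 of 14 counted cytokine receptor and NF-kB genes were higher in old: Irf1, which is induced by interferon, at 1.60 (1.05 to 2.49) and Nfkbib, an inhibitor of NF-kB, at 3.30 (0.955 to 17.6, from 17 and 3 UMIs). Lower were Ikbkb, which encodes a kinase that activates NF-kB, at 0.626 (0.398 to 0.988) and Ifngr2, a chain of the interferon gamma receptor, at 0.518 (0.247 to 1.08). Gata6 was at 1.98 and Nfe2l2 at 1.54 among the flow regulators, and Cd63 at 1.83 and Actn1 at 0.659 among the anchors. With 10.8% of all genes as far higher and 9.38% as far lower in these smaller sums, such folds were common.

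In Müller glia, where Icam1 was higher in old, Irf1 (1.56, 1.13 to 2.17), Tnfrsf1a, the main TNF receptor (1.68, 1.11 to 2.57), and Ifngr2 (1.52, 0.814 to 2.89) were the 3 of 16 counted cytokine receptor and NF-kB genes past the fold in the higher direction, where 8.39% of all genes were. Il1r1, the interleukin-1 receptor, was at 0.256 (0.0860 to 0.640) and Ikbkg at 0.594 (0.245 to 1.36), where 7.12% of all genes were past it in the lower direction. Of the other lists, 1 junction gene and 1 flow regulator were higher, and 2 junction genes, 1 integrin or ligand gene, 1 anchor and 1 flow regulator were lower.

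**Figure D4:**
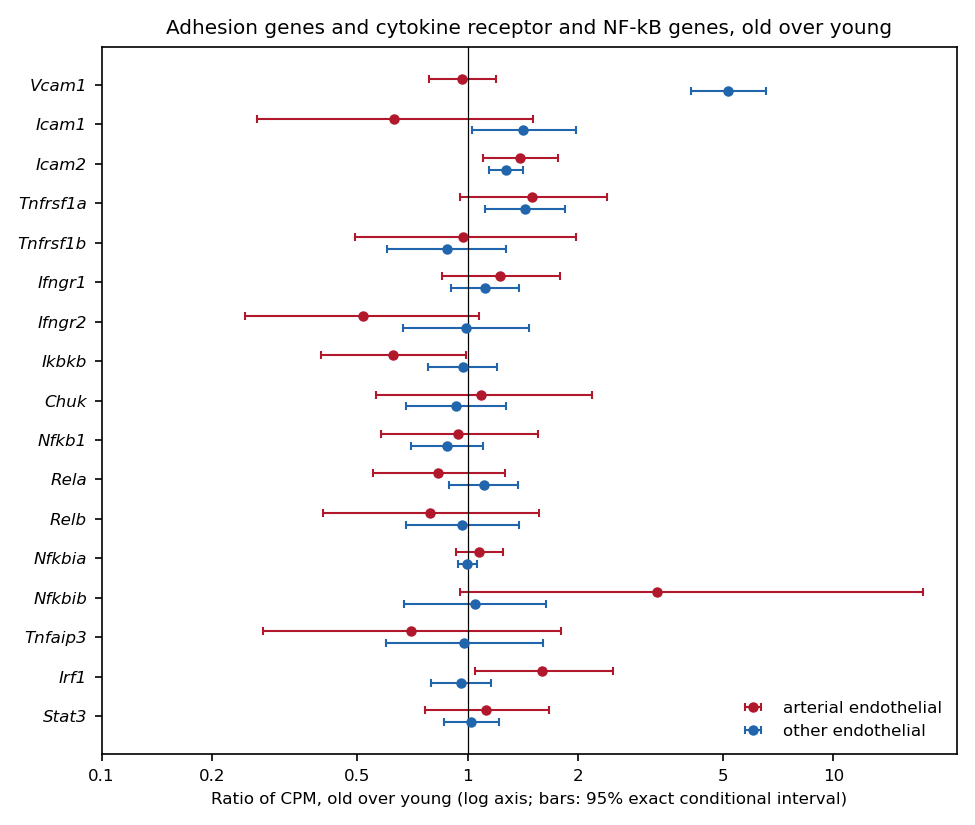
Ratio of old to young CPM (horizontal axis, log scale) for the adhesion genes and for the cytokine receptor and NF-kB genes with enough UMIs in both arterial and other endothelial cells (vertical axis), with 95% exact conditional intervals. Vcam1, at 5.15, lay above every other gene shown in other endothelial cells. The genes were selected on its higher level in old, so this place is a description only.

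The genes whose level was most like that of each adhesion gene were found by the Pearson correlation of log2(CPM + 10) over 30 points, 10 cell classes in 3 libraries, among 10088 genes. The points share libraries, depth and free RNA, so the values describe a likeness of pattern only. For Vcam1 they were Crispld1 (0.96), Stxbp6 (0.91), Id2 (0.91), Cd24a (0.91) and Ctsh (0.90). For Icam1 they were Plekhg1 (0.92), Sema6a (0.92), Rras2 (0.90), Dock4 (0.90) and Rai14 (0.90). For Icam2 they were Tmem252 (0.99), Srarp (0.99), Gimap1 (0.99), Sox17 (0.99) and Lsr (0.99). In other endothelial cells, none of the 5 genes closest to Vcam1 differed between young and old by as much as it did. Vcam1 was chosen for its higher level in old, so this comparison is a description only. Crispld1 was at 19.3, 30.7 and 34.1 CPM there in young, adult and old, and Cd24a at 13.2, 21.2 and 14.6 CPM.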

How the data were processed

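Retinal cells enriched for CD31 were sequenced as 3 libraries, 1 for each age, with 10x Genomics chemistry. The authors deposited a matrix of UMI counts per gene and barcode for each library, made with Cell Ranger 6.1.2 on mm10 per the submitters' processing notes, and no cell annotation was used here. Barcodes with 500 to 6000 genes and 1 to 20% mitochondrial counts were integrated over the libraries with Seurat 5.3.0 (CCA, 2000 genes, 30 components, resolution 0.5, and 1 for the endothelial subclusters). Scrublet in Scanpy 1.11.5 called 7, 17 and 16 doublets. These were present in the clustering and naming and were left out of the kept cells and all sums, except where doublets are said to be kept. A called share of 0.409 to 0.934% is low, so droplets of several cells may remain. Clusters were named from fixed marker lists. The naming limits (a marker in at least 20% of a cluster's cells and at 25% of its highest level, 50% of a list, at least 3 markers) were set after the clusters were seen. The arterial class and the subclusters rest on these rebuilt names.

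Counts were summed per class and library and divided by the class total (CPM). Intervals are exact Poisson (levels), exact conditional (ratios) and Clopper-Pearson (shares), at 95%, and a count of 0 is read as up to 3. A gene entered the fold counts with 20 UMIs in both libraries together. Lists were described by counts and medians, and 2 of their genes are not reported here. Code was tested on simulated data. The genes, lists and markers were chosen with earlier results of these data known. The text covers the adhesion genes in the endothelial, mural, glial, neuronal and leukocyte classes, the genes of each list at least 1.5-fold apart between old and young with 20 UMIs (in arterial and other endothelial cells, at most 5 a list by size), and the 5 genes most like each of Vcam1, Icam1 and Icam2 with at least 300 UMIs. Cxcl10 and the genes named for venous-like cells and Müller glia were chosen after their values were seen. Alternatives covered thinning to 2000 UMIs, stricter limits (1000 genes, 10% mitochondrial), equal weight of cells, scaling by the median of ratios, subtraction of the level in rods, doublets kept, other class borders and, added after the data were seen, the highest 5 cells left out and a limit of 4 markers of another class.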

Additional observations from a re-analysis of the deposited data

Results flagged for a closer look

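The ratios of 2 adhesion genes lay on opposite sides of 1 in arterial and in other endothelial cells of the same libraries. With 1 library per age the difference between the classes was not tested. Vcam1 from young to old had a ratio of 0.968 in arterial cells and 5.15 in other endothelial cells, and from adult to old it was 0.932 and 1.68. The arterial intervals from young to old (0.785 to 1.20) and from adult to old (0.764 to 1.14) hold both directions. From young to old the arterial value depends on a few young cells and was above 1 under most alternatives: 1.13 with thinned cells, 1.01 with doublets kept, 1.02 with a limit of 4 markers of another class, 1.29 with cells weighted equally, 1.63 without cells with 2 or more such markers, 2.20 with cells named by their own markers and 2.38 without the 5 highest cells of each library. The value in other endothelial cells moved as well, and the order of the classes was not the same under every alternative: it was 1.24 without cells with 2 or more such markers, below the arterial 1.63, and 2.56 with cells named by their own markers, near the arterial 2.20. With mixed droplets counted in it was 2.59, and without the 5 highest cells it was 9.23. Icam1 from young to old was at 0.631 in arterial cells (0.265 to 1.51, from 12 and 13 UMIs) and at 1.42 in other endothelial cells, and there too the arterial interval holds both directions. The other endothelial value of Icam1 was itself below 1, at 0.770 from 4 and 10 UMIs, without cells with 2 or more markers of another class.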

How the results depend on the processing

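No paired analysis was possible because each age had 1 library, and for the same reason leaving out a replicate was not possible. Of the alternative values of the ratios and counts given here, 80 stayed within the counting interval (or 1.5 times, for a count) of the reported one, 35 moved beyond it and 2 reversed, that is, crossed 1 where the reported interval did not hold 1. Values of Vcam1 from young to old in arterial cells, Müller glia and mural cells that crossed 1, from intervals that held it, are counted among the 80 or the 35. Scaling by the median of ratios, the stricter cell limits, kept doublets and the subtracted rod level moved none of the ratios of Vcam1 or Icam2. The cause of each change below was not tested.

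Thinned to 2000 UMIs, the ratio of old to young was 7.91 for Vcam1 and 2.84 for Icam1 in other endothelial cells and 0.734 for Vcam1 in Müller glia, the ratio of adult to young of Vcam1 was 4.48, and the arterial to other ratio was 21.5, 4.44 and 3.07 in young, adult and old. Without cells with 2 or more markers of another class, which left 9 to 12 arterial and 39 to 86 other endothelial cells a library, Vcam1 from young to old was 1.63 in arterial, 1.24 in other endothelial and 0 in mural cells, Icam2 was 1.64, Icam1 reversed to 0.770, and the arterial to other ratio reversed to 0.494 in adult and was 13.1 in old. With a limit of 4 such markers, Vcam1 in other endothelial cells was 8.05 (old to young) and 5.42 (adult to young), and the arterial to other ratio was 18.8 in young and 2.39 in old. Without the 5 highest cells these ratios of Vcam1 were 9.23 and 4.53, and the arterial one was 2.38. In both classes those 5 cells held a larger part of the young UMIs than of the adult or old ones. With every cell counted equally, the arterial ratio was 1.29 and the arterial to other ratio in old was 3.38. With the mixed droplets counted as endothelial, Vcam1 was 2.59 (old to young) and 2.28 (adult to young), and the arterial to other ratio was 7.68 in young and 2.87 in old. With arterial cells named by their own markers, Vcam1 from young to old was 2.20 in arterial and 2.56 in other endothelial cells (the latter added after seeing the data). The arterial to other ratio was then 2.50 in young, 1.36 in adult and 2.15 in old, with no steady fall over the libraries. This naming counted 155, 179 and 219 cells as arterial, against 48, 60 and 78 by cluster.

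The count of adhesion genes past the fold between old and young went from 1 to 0 in arterial cells and in Müller glia with a minimum of 50 UMIs (6.4% of all genes higher and 5.06% lower in arterial cells, 5.02% and 3.52% in Müller glia), and from 1 to 2 in other endothelial cells with no minimum (17.7% and 16.6%), where the added gene was Sele with 1 and 2 UMIs. The ratio of old to young of Icam1 in Müller glia, from 35 and 10 UMIs, was not stable. It was 13.5 without cells with 2 or more markers of another class, 12.0 with the level in rods subtracted and 10.7 without the 5 highest cells, and thinned cells gave none. For Sele, Selp and Madcam1 the depth allows no ratio.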
